A study of Mus musculus with 58 samples.

Results

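The expression of 10 chemokine ligands of the brain was followed across the genotypes and treatments of a mouse model of traumatic brain injury (TBI). The ligands were chosen by symbol from the deposited table of read counts: Ccl3, Ccl4, Ccl5, Ccl6, Ccl9, Ccl12, Cxcl10, Cxcl12, Cxcl16 and Cx3cl1. All 10 of the 10 symbols were found among the 15171 genes of the table, and all 10 passed the filter on low counts, which removed 0 genes. RNA was sequenced from hippocampus and cortex at the injury site, frozen together, of 58 C57BL/6 mice aged 3 months. Every mouse carried human APOE3 (E3) or APOE4 (E4) in place of mouse Apoe, and either both copies of the lipid transporter gene Abca1 (Abca1+/+) or 1 copy (Abca1+/-). Controlled cortical impact to a depth of 1.0 mm with a 3.0 mm tip was delivered through a 4.5 mm craniotomy over the left parietal cortex. Sham mice had the craniotomy alone, so both treatments share the opened skull, and all tissue was taken on day 14. The groups were E3/Abca1+/+ sham (n = 8) and TBI (n = 8), E3/Abca1+/- sham (n = 7) and TBI (n = 6), E4/Abca1+/+ sham (n = 7) and TBI (n = 7), and E4/Abca1+/- sham (n = 7) and TBI (n = 8), with females and males in each.

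Chemokines are small secreted proteins that guide leukocytes by binding G protein-coupled receptors. Most CC and CXC ligands are made on demand by microglia, macrophages, astrocytes and vessel cells, through NF-kB and interferon signalling, and draw in monocytes, T cells and neutrophils. Cxcl12 and Cx3cl1 are different in kind, since the healthy brain makes both at all times. Cxcl12 acts on Cxcr4 and Ackr3, and Cx3cl1 is a neuronal transmembrane ligand whose receptor Cx3cr1 is the classic surface marker of microglia. In bulk tissue a change in the number of cells of a type and a change in the RNA per cell cannot be told apart.

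Ccl5, Ccl9, Ccl6, Ccl3 and Ccl4 lie in this order within 139 kb of chromosome 11 (GENCODE annotation of GRCm38, 83525778 to 83664683). Ccl12 (82101845 to 82103400) lies on the same chromosome, 1420 kb away, and Cxcl16 (70453983 to 70459984) lies farther off on it. Cxcl10 is on chromosome 5 (92346638 to 92348889), Cxcl12 on chromosome 6 (117168535 to 117181367) and Cx3cl1 on chromosome 8 (94772009 to 94782427). RefSeq promoters of GRCm38.p6 were matched for 7 of the 10 genes, and Ccl4, Ccl5 and Cxcl16 were not matched. The 250 bases before the start of 3 genes are shown because Cxcl10 had the steepest rise after injury in 3 of 4 genotypes, Ccl12 varied most like it from mouse to mouse, and Ccl9 differed most by sex. Capitals mark NF-kB (GGGANNNNCC), interferon-stimulated response element (ISRE, GAAANNGAAA) and AP-1 (TGANTCA) letters on either strand, and TATAAA on the gene's strand.
Cxcl10 (chr5:92348890-92349139, minus strand): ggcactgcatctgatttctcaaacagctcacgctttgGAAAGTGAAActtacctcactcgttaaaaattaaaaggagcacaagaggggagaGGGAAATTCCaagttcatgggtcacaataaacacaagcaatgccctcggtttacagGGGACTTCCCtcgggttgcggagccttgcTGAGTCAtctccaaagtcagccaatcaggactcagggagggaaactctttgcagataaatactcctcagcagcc
Ccl12 (chr11:82101595-82101844, plus strand): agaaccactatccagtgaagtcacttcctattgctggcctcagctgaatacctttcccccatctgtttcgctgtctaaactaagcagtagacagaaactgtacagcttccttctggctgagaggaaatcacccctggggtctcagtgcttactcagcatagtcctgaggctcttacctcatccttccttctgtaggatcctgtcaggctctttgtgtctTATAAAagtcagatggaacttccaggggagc
Ccl9 (chr11:83578637-83578886, minus strand): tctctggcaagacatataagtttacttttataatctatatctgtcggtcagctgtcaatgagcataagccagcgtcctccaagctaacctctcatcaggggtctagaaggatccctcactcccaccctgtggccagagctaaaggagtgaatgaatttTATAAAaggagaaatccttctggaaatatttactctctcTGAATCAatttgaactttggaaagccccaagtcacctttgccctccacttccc
The Cxcl10 sequence held NF-kB letters from −159 to −150 (GGGAAATTCC) and from −103 to −94 (GGGACTTCCC, which match on both strands), ISRE letters from −213 to −204 (GAAAGTGAAA) and AP-1 letters from −74 to −68 (TGAGTCA), counted back from the start. Among the 7 promoters searched it was the 1 with NF-kB letters, which 17.6% of 32851 promoters of the same length hold, and the 1 with ISRE letters, which 2.98% hold. The Ccl9 sequence held AP-1 letters from −53 to −47, as 6.75% of all promoters do. TATAAA was present in 3 of the 7 promoters and in 7.59% of all, at any position in the window. It lay from −31 to −26 in Ccl12, from −92 to −87 in Ccl9 and from −6 to −1 in Cx3cl1. These are matches of letters in a short window, not measured binding.

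Total counts per mouse ran from 4421308 to 37877346. The Abca1+/- libraries were deeper than the Abca1+/+ libraries by a ratio of medians of 2.26, and 21 of 28 exceeded all the Abca1+/+ libraries, so Abca1 copies and depth cannot be told apart. The floor was set at 3 counts, which equal 0.0773 CPM (counts scaled to a common library size with TMM factors, the unit of all levels here) where sequencing was deepest and 0.685 CPM where it was shallowest. Abca1 was lower in Abca1+/- than in Abca1+/+ mice by log2 fold changes of −0.45 (E3 sham, adjusted p = 0.00999 from edgeR), −0.36 (E4 sham, 0.0785), −0.71 (E3 TBI, 0.124) and −0.18 (E4 TBI, 0.755), so 3 of the 4 comparisons missed the threshold of 0.05. Mouse Apoe had 16.4 to 28.9 CPM over all mice, and the human isoform was not read from these counts. The labels do not say that mice of 1 group came from separate litters, and p-values measure the spread between these mice.

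Per length of exon, the ligands that brain makes at all times stood far above the others. Cx3cl1 had 236 ± 15.3 CPM per kilobase in sham mice (SD, n = 29) and Cxcl12 had 8.60 ± 1.25, while the other 8 lay between 0.174 (Ccl5) and 0.680 (Ccl6) CPM per kilobase. After injury Cx3cl1 had 185 ± 18.3 and Cxcl12 had 8.53 ± 1.02 CPM per kilobase (n = 29). The other 8 then lay between 1.31 (Ccl9) and 4.21 (Ccl12), and Cxcl10 (4.14) and Ccl3 (3.67) came next below Ccl12. Among sham mice the neighbours in this order Ccl5, Ccl4 and Cxcl10, at 0.174, 0.178 and 0.181 CPM per kilobase, differed by less than their SDs (0.162, 0.178 and 0.184). As a share of the summed CPM of the 10 ligands, the 8 low ones made up 0.503% to 0.628% on average in the sham groups and 3.70% to 5.72% in the injured groups.

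**Figure D1:**
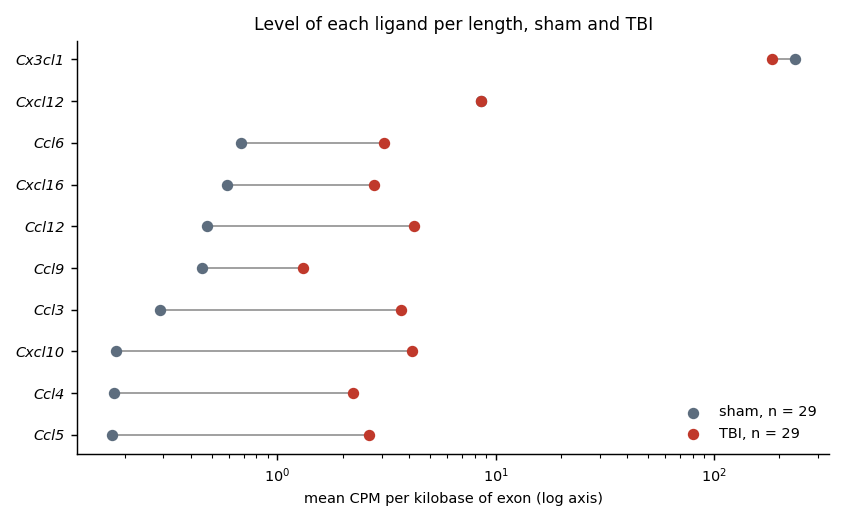
Mean level of each ligand in CPM per kilobase of exon on a log axis, for all sham mice (grey, n = 29) and all injured mice (red, n = 29). Cx3cl1 moves left from 236 to 185, Cxcl12 sits at 8.60 and 8.53, and the other 8 ligands move right but end below Cxcl12.

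In each of the 4 genotypes 8 of the 10 ligands rose after TBI, 1 fell, and 1 did not pass the test (edgeR's quasi-likelihood test of TBI against sham within a genotype, Benjamini-Hochberg adjusted p under 0.05 over all 15171 genes). The 8 that rose were Ccl3, Ccl4, Ccl5, Ccl6, Ccl9, Ccl12, Cxcl10 and Cxcl16, Cx3cl1 fell, and Cxcl12 was not called. Of all genes 13.3% were called higher and 9.49% lower in the E3/Abca1+/+ genotype, 13.7% and 10.1% in the E3/Abca1+/- genotype, 9.24% and 4.5% with E4/Abca1+/+, and 19.7% and 12.7% with E4/Abca1+/-. The median log2 fold change of the 10 ligands was 2.40, 2.48, 2.55 and 3.07 in this order, against medians between 0.00145 and 0.0250 over all genes. Levels of all injured mice exceeded those of all sham mice of the genotype for 7 ligands in E3/Abca1+/+ mice, 8 in E3/Abca1+/-, 6 in E4/Abca1+/+ and 8 in E4/Abca1+/- mice, where 4.36%, 6.57%, 3.76% and 7.36% of all genes did so. They were below those of all sham mice for 1, 1, 0 and 0 ligands, and for 2.03%, 3.39%, 0.765% and 2.39% of all genes.

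**Figure D2:**
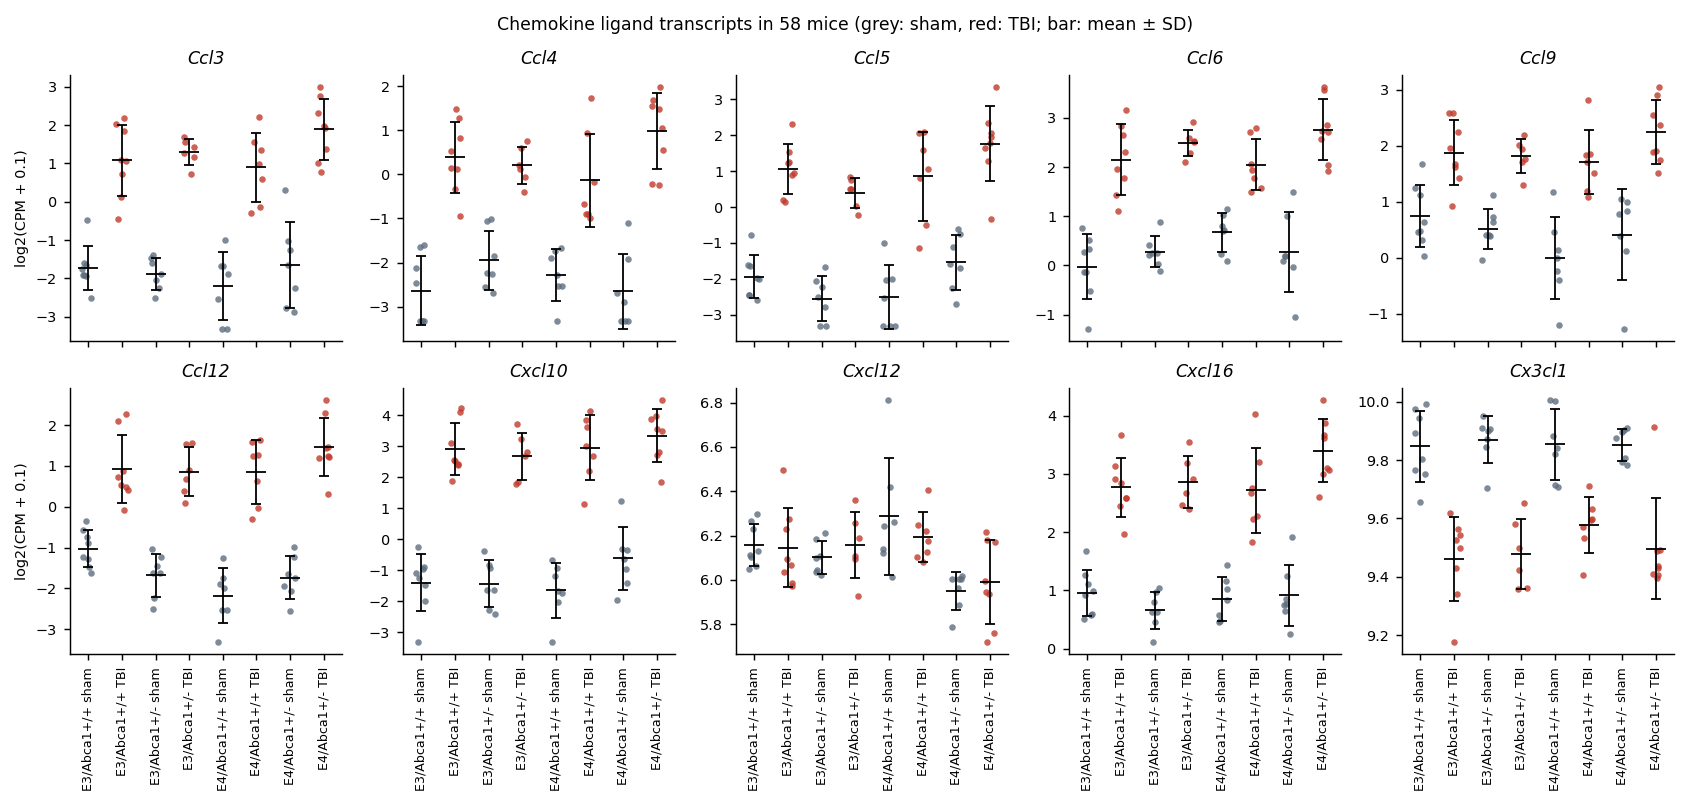
CPM of each ligand in every mouse, as log2(CPM + 0.1), in the 8 groups (grey points sham, red points TBI, black bars mean ± SD of 6 to 8 mice). The red means stand above the grey ones for 8 ligands and below them for Cx3cl1, where 1 E4/Abca1+/- TBI mouse stands at 964 CPM, and the points overlap for Cxcl12, whose axis spans a narrow range.

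Cxcl10, the interferon-inducible ligand of Cxcr3 on T cells, rose most in 3 of the 4 genotypes. In E3/Abca1+/+ mice its lowest, median and highest values were 0, 0.349 and 0.736 CPM in sham and 3.59, 5.75 and 18.6 CPM in injured mice. They were 0.0879, 0.226 and 0.676 against 3.31, 6.64 and 13.1 CPM in E3/Abca1+/- mice, and 0, 0.216 and 0.532 against 2.12, 8.01 and 17.5 CPM in E4/Abca1+/+ mice. In E4/Abca1+/- mice they were 0.160, 0.548 and 2.28 against 3.51, 11.4 and 22.4 CPM. No injured mouse overlapped the sham mice of its genotype. Of the 29 sham libraries 13 held 3 counts or fewer of Cxcl10, among them 6 of 7 E4/Abca1+/+ libraries. Its sham levels and fold changes thus rest on few reads. The log2 fold changes were 4.53 (SE 0.44), 4.54 (SE 0.41), 5.11 (SE 0.52) and 3.93 (SE 0.47), with adjusted p from 3.01e-07 to 2.22e-05 (edgeR).

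Ccl3, Ccl4 and Ccl5 are CC ligands that attract monocytes and T cells, and Ccl3 and Ccl5 bind Ccr1. All 3 were close to undetected in sham mice: 20, 25 and 21 of the 29 sham libraries held 3 counts or fewer of Ccl3, Ccl4 and Ccl5, so their sham levels and fold changes rest on few reads. Ccl3 ran from 0 to 1.14 CPM over all sham mice (median 0.169) and from 0.634 to 7.95 CPM over all injured mice (median 2.45). Its injured and sham mice did not overlap in any genotype, but in E3/Abca1+/+ mice the gap between them was smaller than 1 read. There the highest sham mouse had 0.619 CPM from 4 counts and the lowest injured mouse 0.634 CPM from 3 counts. The log2 fold changes of Ccl3 lay between 3.51 (SE 0.45, E3/Abca1+/+) and 3.78 (SE 0.27, E3/Abca1+/-), although without E4/Abca1+/- sham replicate 2 the value in that genotype went from 3.60 to 4.47. Ccl4 ran from 0 to 0.394 CPM in sham and from 0.407 to 3.87 CPM in injured mice, so the ranges did not meet, but 4 injured mice also held 3 counts or fewer and the gap between the highest sham and the lowest injured mouse is smaller than 1 read. Its log2 fold change was 4.22 (SE 0.54) in E3/Abca1+/+, 2.67 (SE 0.38) in E3/Abca1+/-, 3.06 (SE 0.64) in E4/Abca1+/+ and 4.41 (SE 0.60) in E4/Abca1+/- mice. These values moved with the setting. With libraries thinned to the lowest total they were 3.13, 2.93, 4.14 and 5.31, which turns the order of the Abca1+/+ genotypes. Without E4/Abca1+/- sham replicate 2 the last was 5.51. Ccl5, a T cell and monocyte attractant also known as RANTES, had lowest, median and highest values of 0, 0.142 and 0.548 CPM in sham and 0.354, 2.0 and 10.1 CPM in injured mice. Its groups overlapped in E4/Abca1+/+ mice, where 6 of 7 injured mice stood above every sham mouse. The log2 fold changes of Ccl5 lay between 3.64 (SE 0.41, E3/Abca1+/-) and 3.97 (SE 0.65, E4/Abca1+/+), but thinned libraries gave 3.18 for E3/Abca1+/+ and 4.64 for E4/Abca1+/+, and leaving out sham replicate 6 of E4/Abca1+/+ also gave 4.64. The largest adjusted p among these 3 ligands was 0.00367 (Ccl4, E4/Abca1+/+, edgeR).

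Ccl12, a rodent ligand of the monocyte receptor Ccr2, ran from 0 to 0.685 CPM in sham mice and from 0.707 to 6.03 CPM in injured mice. No injured mouse fell among the sham mice, but this gap too is smaller than 1 read, and 17 of the 29 sham libraries held 3 counts or fewer. Its log2 fold change was 2.44 (SE 0.40) in E3/Abca1+/+, 2.89 (SE 0.34) in E3/Abca1+/-, 3.61 (SE 0.46) in E4/Abca1+/+ and 3.70 (SE 0.38) in E4/Abca1+/- mice, with adjusted p of 0.00013 or below (edgeR), and in thinned libraries it was 1.97 in E3/Abca1+/- mice. The sham means were 0.414, 0.231, 0.140 and 0.217 CPM in this order, and the injured means were 2.12, 1.85, 1.94 and 2.99 CPM. In sham mice the mean was thus highest in the E3/Abca1+/+ genotype, and after injury in E4/Abca1+/- mice.

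Ccl6 and Ccl9 are rodent CC ligands of Ccr1 that myeloid cells make, and both were readily counted in sham mice. Ccl6 ran from 0.309 to 2.73 CPM in sham (median 1.09) and from 2.04 to 12.3 CPM in injured mice (median 5.58), with no overlap within a genotype. Its log2 fold change was 2.36 (SE 0.31), 2.29 (SE 0.17), 1.48 (SE 0.25) and 2.47 (SE 0.36) in E3/Abca1+/+, E3/Abca1+/-, E4/Abca1+/+ and E4/Abca1+/- mice. Ccl9 rose least of the 8 in 3 genotypes (in E4/Abca1+/+ mice Ccl6 rose less), from a median of 1.27 CPM (0.315 to 3.08) to 3.54 CPM (1.80 to 8.23), with log2 fold changes of 1.24 (SE 0.27), 1.35 (SE 0.19), 1.79 (SE 0.32) and 1.82 (SE 0.32) in the same order. Injured and sham mice overlapped for Ccl9 in both Abca1+/+ genotypes, where 4 of 8 E3 and 6 of 7 E4 injured mice stood above every sham mouse.

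Cxcl16 is a scavenger receptor for oxidized lipoprotein as well as the ligand of Cxcr6. It ran from 0.978 to 3.67 CPM in sham mice (median 1.65) and from 3.46 to 19.1 CPM in injured mice (median 7.40), with no overlap within a genotype. Its log2 fold change was 1.92 (SE 0.22), 2.29 (SE 0.21), 2.03 (SE 0.32) and 2.53 (SE 0.27) in the same order of genotypes, with adjusted p from 8.60e-07 to 4.36e-04 (edgeR). In GENCODE 18.3% of the exon bases of Cxcl16 are shared with Zmynd15 on the other strand, and 5.91% of those of Cxcl10 with Art3, and whether counting used strand is not given in the sources used here.

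Cx3cl1, the most abundant of the 10, fell in every genotype. Its lowest, median and highest values were 806, 923 and 1019 CPM in E3/Abca1+/+ sham and 578, 730 and 786 CPM in injured mice. In E3/Abca1+/- mice they were 834, 954 and 990 CPM in sham and 656, 705 and 805 CPM in injured mice, and in both E3 genotypes no injured mouse reached the sham range. In E4/Abca1+/+ mice they were 836, 918 and 1028 CPM in sham against 678, 772 and 839 CPM, and in E4/Abca1+/- mice 880, 940 and 961 against 674, 691 and 964 CPM. A single injured mouse stood within the sham range in E4/Abca1+/+ mice and a single one above it in E4/Abca1+/- mice. The log2 fold changes were −0.38 (SE 0.06), −0.39 (SE 0.05), −0.28 (SE 0.06) and −0.35 (SE 0.07), with adjusted p from 5.27e-05 to 0.00312 (edgeR). The summed CPM of 6 neuron markers (Rbfox3, Snap25, Syt1, Slc17a7, Gad1 and Gad2) moved the same way, from 7505 to 8554 in sham and from 5336 to 7604 in injured mice, and its part in the fall was not tested.

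Cxcl12, which meninges, vessels and some neurons make, was the 1 ligand that was not called in any genotype. It had 71.4 ± 4.72 against 71.1 ± 9.28 CPM in E3/Abca1+/+ (SD, n = 8 and n = 8, sham against TBI), 68.6 ± 3.56 against 71.5 ± 7.34 CPM in E3/Abca1+/- (n = 7 and n = 6), 79.2 ± 16 against 73.3 ± 5.89 CPM in E4/Abca1+/+ (n = 7 and n = 7) and 61.9 ± 3.56 against 63.9 ± 8.25 CPM in E4/Abca1+/- mice (n = 7 and n = 8). The sham and injured mice overlapped in all 4 genotypes. The log2 fold changes lay between −0.12 (SE 0.10, E4/Abca1+/+) and 0.06 (SE 0.06, E3/Abca1+/-), with adjusted p of 0.505 or above (edgeR). Its direction in E3/Abca1+/+ mice, a log2 fold change of 0.0044, flips with another scaling (−0.01 with DESeq2's size factors).

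**Figure D3:**
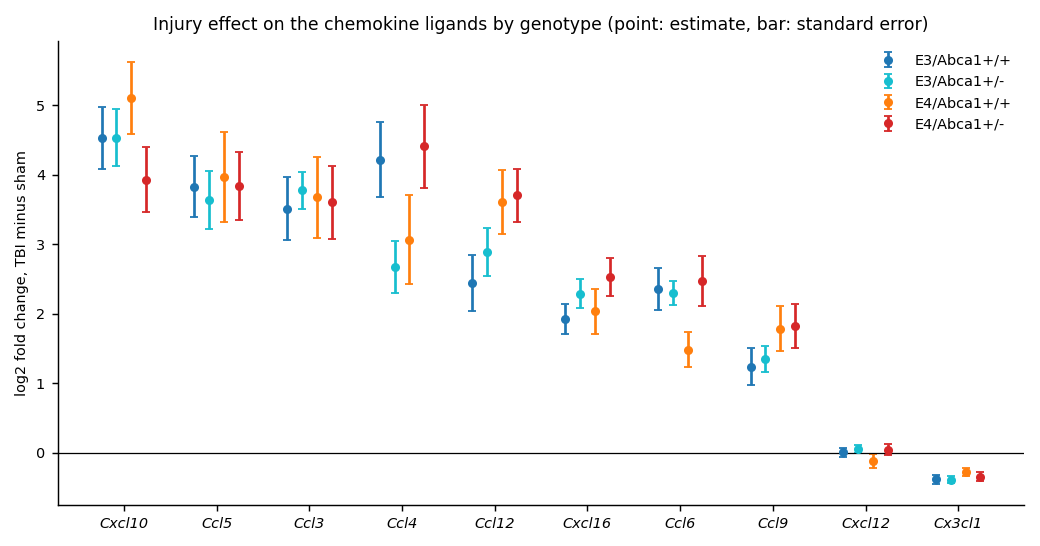
Log2 fold change (TBI against sham) for each ligand in the 4 genotypes (point, edgeR estimate, bar, 1 standard error). The 8 ligands that rose span 1.24 (Ccl9, E3/Abca1+/+) to 5.11 (Cxcl10, E4/Abca1+/+), Cxcl12 sits at 0 and Cx3cl1 between −0.28 and −0.39.

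Markers of the cells that make or answer these ligands moved with injury too. The summed CPM of 7 microglia markers ran from 269 to 422 in sham and from 487 to 972 in injured mice, and all 7 rose in every genotype. The sum of 5 astrocyte markers ran from 1327 to 2000 in sham and from 2180 to 5385 in injured mice. The sum of 7 markers of border macrophages and monocytes ran from 4.14 to 21.9 in sham and from 6.37 to 45.7 in injured mice, with 4, 4, 4 and 3 of the 7 called higher. Of 7 T and NK cell markers 3 were measured, and their sum ran from 1.81 to 5.69 in sham and from 1.30 to 14.7 in injured mice. Its members moved in opposite directions, as Cd8a, at 0 counts in 16 sham mice, rose and Trbc2 fell in all 4 genotypes. Of 4 neutrophil markers 2 were measured, and their sum ran from 0 to 1.07 in sham and from 0.289 to 17.9 CPM in injured mice. The part of these cells in the rise of the ligands was not tested.

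Of 11 chemokine receptors 9 were measured, since Ccr3 and Cxcr3 were not in the table. After injury 7, 6, 6 and 6 of the 9 rose and 0 fell, in E3/Abca1+/+, E3/Abca1+/-, E4/Abca1+/+ and E4/Abca1+/- mice. Ccr2, the monocyte receptor for Ccl12, rose by log2 fold changes of 2.23, 2.37, 2.78 and 3.35, and Cxcr6, the receptor for Cxcl16, by 2.85, 2.20, 3.14 and 2.76. Both were low in sham mice, so these values rest on few reads. Ccr2 had a sham median of 0.339 CPM, with 4 mice at 0 counts. Cxcr6 had 0.0369 ± 0.0385 CPM per kilobase in sham mice (SD, n = 29). Cxcr4, a receptor for Cxcl12, rose by 1.90, 1.86, 1.57 and 2.08 while its ligand was not called. Cx3cr1 rose by 0.94, 0.84, 0.96 and 1.21 while Cx3cl1 fell. Ccr1 rose by 1.50, 1.37 and 1.92 in 3 genotypes, and its log2 fold change in E4/Abca1+/+ mice was 1.71 (SE 0.57, adjusted p = 0.0540, edgeR). Of the decoy receptors, Ackr3 had log2 fold changes between −0.03 and 0.18 and Ackr2 between −0.51 and −0.11, none of them called. Ackr1 was called in both Abca1+/+ genotypes (0.14 and 0.21), but 25.7% of its exon bases are shared with Cadm3 on the same strand, so its counts are uncertain.

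Of 26 other chemokine ligands 11 were measured, and 6, 5, 5 and 6 of them rose. Cxcl5, a neutrophil attractant, rose by log2 fold changes of 5.71, 7.01, 5.54 and 5.33 in the same order of genotypes, and Ccl2, a ligand of Ccr2, by 4.32, 3.74, 5.21 and 4.50. The 1 that fell, in both E3 genotypes and named after its values were seen, was Ccl27a (−0.34 and −0.38). Among 8 proteases that shed or trim chemokines 5, 6, 5 and 5 rose, among them cathepsin S (Ctss, 1.87, 1.66, 1.82 and 2.20). Adam17, which sheds Cx3cl1, rose by 0.57, 0.49, 0.54 and 0.81. Among 13 measured inducers (transcription factors and cytokines, mostly of the NF-kB and interferon pathways) 11, 12, 10 and 13 rose. All these values are log2 fold changes after injury that passed the test.

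Of the 10 ligands 0 were called between Abca1+/- and Abca1+/+ mice in any of the 4 comparisons by edgeR, where 2.27% (E3 sham), 0.0923% (E3 TBI), 0.87% (E4 sham) and 1.36% (E4 TBI) of all genes were called. At an unadjusted p under 0.05 the counts were 0, 1, 2 and 5 ligands in this order, against 16.4%, 9.18%, 15.9% and 18.3% of all genes, and DESeq2's Wald test called 0, 0, 1 and 0. The 5 in injured E4 mice were Ccl3 (log2 fold change 1.06, SE 0.42), Ccl4 (1.03, SE 0.48), Ccl6 (0.75, SE 0.29), Cxcl16 (0.66, SE 0.30) and Cxcl12 (−0.20, SE 0.08), with adjusted p between 0.180 and 0.267 (edgeR). In the same comparison the means were 4.14 ± 2.26 against 2.10 ± 1.33 CPM for Ccl3 and 11.1 ± 4.34 against 7.30 ± 4.34 CPM for Cxcl16 (SD, n = 8 Abca1+/- and n = 7 Abca1+/+), and the ranges overlapped for both. The other 3 were Ccl5 in injured E3 mice (−0.86, SE 0.32, adjusted p = 0.372) and, in E4 sham mice, Cxcl10 (1.52, SE 0.63, adjusted p = 0.250) and Cxcl12 (−0.37, SE 0.09, adjusted p = 0.0679). For Cxcl10, 6 of 7 E4/Abca1+/+ sham libraries held 3 counts or fewer. In E4/Abca1+/- sham mice replicate 2 had 2.28 CPM of Cxcl10, the others 0.160 to 0.710, and its weight here was not tested.

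Cxcl12 in E4 mice came closest. Its lowest, median and highest values were 64.5, 75.7 and 112 CPM in E4/Abca1+/+ sham mice and 55.1, 64.0 and 64.7 CPM in E4/Abca1+/- sham mice, so the groups met only at their edges. The call of Cxcl12 was made by DESeq2's Wald test (adjusted p = 0.0115) and by a fit over all 58 mice (adjusted p = 0.0140), and missed by the other alternatives. No mouse was left out in this comparison, so the weight of the E4/Abca1+/+ mouse at 112 CPM was not tested.

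Between isoforms, Ccl5 in injured Abca1+/- mice was the single call among the 10 ligands. In E3/Abca1+/- TBI mice Ccl5 had 0.752, 0.911, 1.31, 1.31, 1.58 and 1.68 CPM. In E4/Abca1+/- TBI mice it had 0.686, 2.32, 3.05, 3.37, 3.80, 4.08, 4.94 and 10.1 CPM, so 7 of 8 mice stood above every E3 mouse and 1 below them all. The means were 4.05 ± 2.77 CPM (SD, n = 8) and 1.26 ± 0.365 CPM (n = 6), a log2 fold change of 1.72 (SE 0.42, adjusted p = 0.0394, edgeR). The call depended on single mice. With each of the 14 mice left out in turn, the log2 fold change lay between 1.33 and 1.88, and the adjusted p passed the threshold in 5 of 14 fits and lay between 0.0574 and 0.0901 in the other 9. The threshold was missed without any 1 of the 6 E3 mice and without E4 replicates 3, 5 or 7, and with libraries thinned to the lowest total (log2 fold change 1.53, adjusted p = 0.0641). The same direction was seen in Abca1+/- sham mice (0.287 ± 0.188 against 0.0843 ± 0.0788 CPM, n = 7 and n = 7, log2 fold change 1.53, SE 0.57, adjusted p = 0.119), while in Abca1+/+ mice the log2 fold changes were −0.25 in sham and −0.10 in injured mice. The sham values rest on few reads, as 5 of 7 E3/Abca1+/- and 2 of 7 E4/Abca1+/- sham libraries held 3 counts or fewer of Ccl5.

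The isoform comparisons called 0 ligands in Abca1+/+ sham, 0 in Abca1+/+ TBI and 0 in Abca1+/- sham mice, where 0.356%, 0.211% and 5.11% of all genes were called, and 1 in Abca1+/- TBI mice, where 2.74% were. At an unadjusted p under 0.05 the counts were 3, 0, 3 and 4 ligands, against 8.81%, 7.18%, 23% and 19.1% of all genes, and DESeq2's Wald test called 0, 0, 1 and 1. The isoform and the Abca1 comparisons share mice and are not independent of each other. In Abca1+/+ sham mice the 3 were Ccl12 (−1.39, SE 0.44), Ccl9 (−0.71, SE 0.30) and Ccl6 (0.65, SE 0.26), with adjusted p between 0.258 and 0.493 (edgeR). In Abca1+/- sham mice the other 2 beside Ccl5 were Cxcl10 (1.29, SE 0.55, adjusted p = 0.167) and Cxcl12 (−0.15, SE 0.04, adjusted p = 0.0582, and 0.0263 with DESeq2's Wald test). The weight of the E4/Abca1+/- sham mouse at 2.28 CPM of Cxcl10 was not tested here either. In injured Abca1+/- mice the other 3 were Ccl3 (0.75), Ccl4 (0.93) and Cxcl16 (0.59), with adjusted p between 0.180 and 0.221. Of the receptors Cx3cr1 was called there (0.48, SE 0.10, adjusted p = 0.0249, edgeR), and its ligand had a log2 fold change of 0.02.

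Whether the injury effect itself differed between genotypes was tested with interaction terms. Of the 10 ligands 0 were called in the 4 interactions, where 0% of all genes were called in each. At an unadjusted p under 0.05, 327 and 730 genes passed for Abca1 by injury in E3 and in E4 mice, and 337 and 965 for isoform by injury in Abca1+/+ and in Abca1+/- mice. DESeq2's Wald test called 0, 0, 0 and 3 genes in the same order, and 0 ligands. The ligands among them were Ccl4 (difference of log2 fold changes −1.63 for Abca1 in E3 mice and 1.74 for isoform in Abca1+/- mice) and Ccl6 (−0.87 for isoform in Abca1+/+ mice), with adjusted p of 0.782 or above (edgeR). The differences between genotypes in the plot of injury effects thus did not pass this test. The differences of Ccl4 moved with the setting: in thinned libraries that for Abca1 in E3 mice was −0.20, and that for isoform in Abca1+/+ mice went from −1.14 to 1.01.

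Ccl9 was higher in females than in males in 8 of 8 groups. In injured E4/Abca1+/- mice the 4 females had 5.11 to 8.23 CPM and the 4 males 2.75 to 3.65 CPM, and in injured E3/Abca1+/- mice the 3 females had 3.72 to 4.48 CPM and the 3 males 2.36 to 3.31 CPM. In these 2 groups the sexes did not overlap, and in the other 6 they did. Over all sham mice Ccl9 had 1.74 ± 0.587 CPM in females (SD, n = 14) and 1.03 ± 0.402 CPM in males (n = 15), and over all injured mice 5.11 ± 1.67 CPM in females (n = 14) and 2.94 ± 0.630 CPM in males (n = 15). In an edgeR fit over all 58 mice with group and sex, chosen after these levels were seen, the log2 fold change of female against male was 0.70 (SE 0.11, adjusted p = 4.76e-05). Sex moved many genes, as 10.1% of all genes were called in this fit. Ccl6, the neighbour of Ccl9 on chromosome 11, was called as well (log2 fold change 0.49, SE 0.14, adjusted p = 0.0175), with the female mean higher in 7 of 8 groups. Without E4/Abca1+/- TBI replicate 8, the female mouse with the highest Ccl9 of all, the log2 fold changes were 0.67 for Ccl9 (adjusted p = 0.000116) and 0.44 for Ccl6 (adjusted p = 0.0250, edgeR).

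The other 8 ligands were not called by sex. Ccl4 (0.61, SE 0.24, adjusted p = 0.0871) leaned to females and was called without E4/Abca1+/- sham replicate 2 (0.71, adjusted p = 0.0249), and Ccl5 (−0.49, SE 0.24, adjusted p = 0.171) leaned to males, with the female mean higher in 2 of 8 groups. Ccr1, the receptor of Ccl6 and Ccl9, was called (0.81, SE 0.21, adjusted p = 0.0114, edgeR). The summed CPM of the 7 microglia markers ran from 299 to 377 in female and from 269 to 422 in male sham mice, and from 546 to 972 in female and from 487 to 845 in male injured mice. Its part in the difference of Ccl9 was not tested.

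Injury by sex was tested over all 58 mice, and 0 of the 10 ligands and 0% of all genes were called (1133 genes at an unadjusted p under 0.05, edgeR). DESeq2's Wald test called 1 gene and 0 ligands. Ccl6 had the smallest p among the ligands, with a log2 fold change of injury larger by 0.80 in females (unadjusted p = 0.00385, adjusted p = 0.384), and Cxcl16 had 0.60 (adjusted p = 0.579). Ccl6 had 1.25 ± 0.422 CPM in female and 1.2 ± 0.622 CPM in male sham mice, and 7.08 ± 2.44 against 4.05 ± 1.40 CPM after injury.

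**Figure D4:**
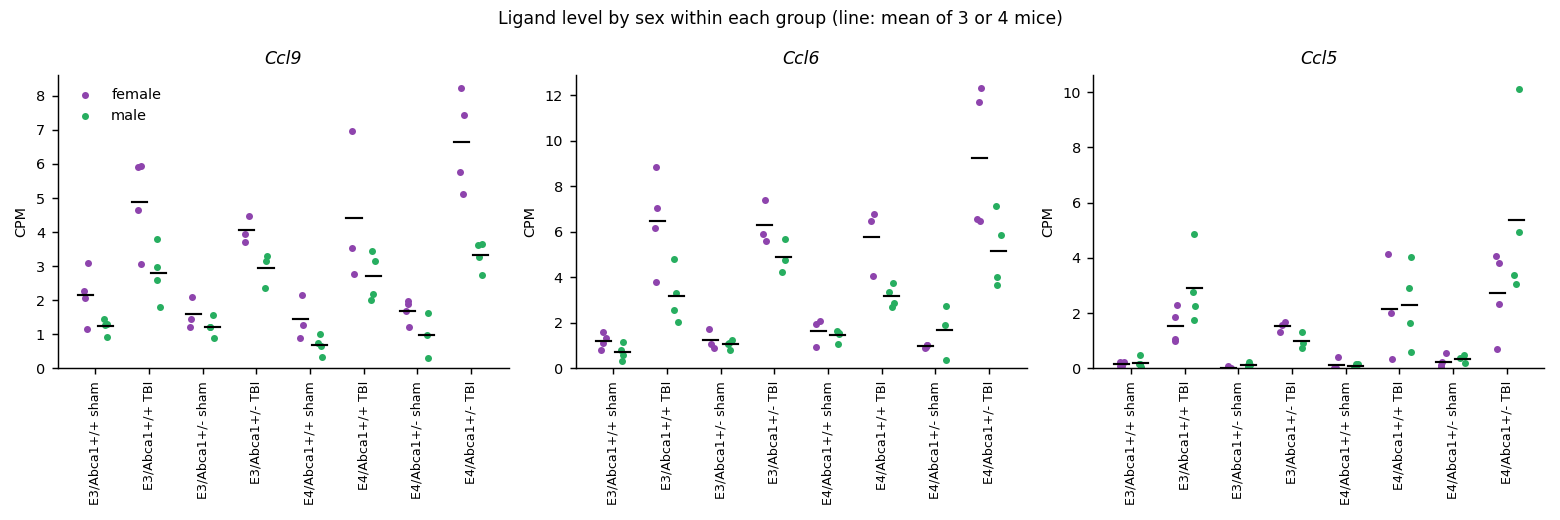
CPM of Ccl9, Ccl6 and Ccl5 in every mouse by sex within the 8 groups (purple points female, green points male, black lines means of 3 or 4 mice). The female line stands above the male line for Ccl9 in 8 of 8 groups, for Ccl6 in 7 and for Ccl5 in 2.

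Mice of a group varied together for some ligands and not for others. Deviations of log2(CPM + 1) from the mean of the mouse's group were correlated over the 58 mice, as a description without a test, since mice share genotype, depth and dissection. Ccl3 went with Ccl4 (r = 0.79) and Cxcl16 (r = 0.77), and Cxcl10 with Ccl12 (r = 0.79). Ccl5 went with Cxcl10 (r = 0.57) and Ccl12 (r = 0.56) but not with its neighbours on chromosome 11, Ccl6 (r = −0.03) and Ccl9 (r = −0.10), while Ccl6 and Ccl9 went together (r = 0.58). Cx3cl1 and Cxcl12 went opposite ways (r = −0.47). E4/Abca1+/- TBI replicate 8 had the highest Cx3cl1 of all injured mice (964 CPM) and the lowest Cxcl12 of all 58 mice (52.5 CPM). Its weight in this r was not tested.

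**Figure D5:**
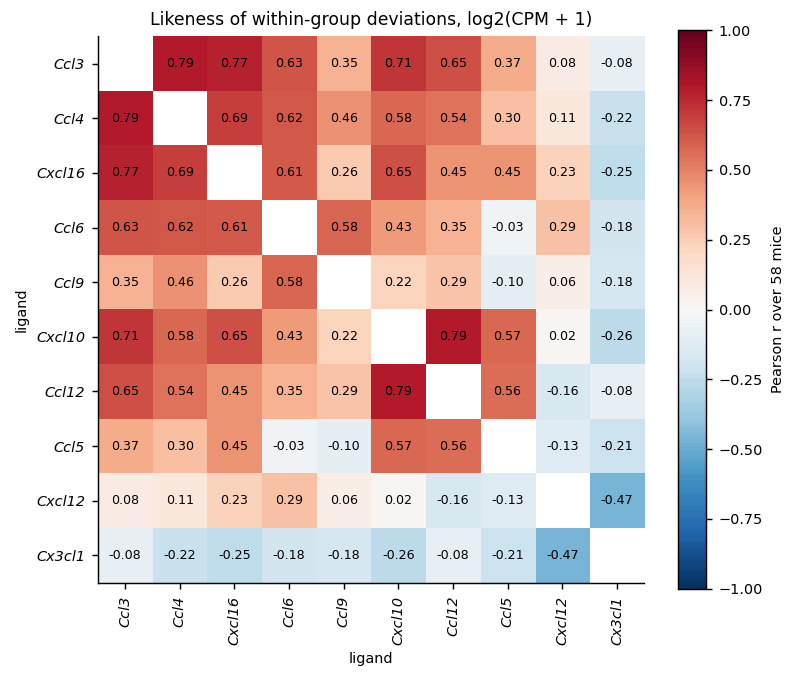
Pearson r between ligands of the deviations of log2(CPM + 1) from group means, over 58 mice (red positive, blue negative, on a scale from −1 to 1). Ccl3, Ccl4 and Cxcl16 reach 0.69 to 0.79 with each other, Cxcl10 and Ccl12 reach 0.79, and Cxcl12 and Cx3cl1 have r = −0.47.

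Across all 15171 genes, the 3 genes most like each ligand by this measure differed between ligands. The exception was Ctsz, shared by Ccl3 and Cxcl16. Ccl3 was most like Grn (progranulin, r = 0.86), Ctsz (a lysosomal cathepsin, 0.86) and Cd9 (0.84), and Cxcl16 like Ctsz (0.85), Lgals3 (galectin-3, 0.85) and Unc93b1 (which carries Toll-like receptors to endosomes, 0.85). Ccl4 was most like Cd53 (a leukocyte tetraspanin, 0.85), Ctsh (0.84) and Evi2b (0.83), and Ccl6 like Nckap1l (0.80), Cd84 (0.79) and Tlr2 (0.79). Cxcl10 was most like Gbp2 (an interferon-induced GTPase, 0.82), Tor3a (0.80) and Ccl12, and Ccl12 like Cxcl10, Mx1 (0.74) and Ifit1 (0.73), both interferon-induced antiviral genes. Ccl5 was most like Ccl8 (0.77) and the MHC class II genes H2-Eb1 (0.76) and H2-Aa (0.74). Ccl9 was most like Cyb5d2 (0.72), Ddx3x (0.71) and Xist (0.69), and the last 2 are X-linked genes whose levels differ by sex. Cx3cl1 was most like the genes Dmtn (0.89), Trim9 (0.80) and Atp2b2 (a neuronal calcium pump, 0.79). Cxcl12 had the weakest likeness, with Reck (0.61), Atr (0.60) and Ptprb (an endothelial phosphatase, 0.60). With a pseudocount of 0.1 in place of 1, 18 of these 30 genes were again among the first 3. All 3 held for Ccl9, Cxcl12 and Cx3cl1. For Ccl3 no gene held, as Lgals3bp, Ifi30 and C1qa took their place, and Cxcl10 and Ccl12 left each other's first 3.

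Single mice weighed on some of these levels. E4/Abca1+/- sham replicate 2 had the highest Cxcl10 (2.28 CPM) and Ccl3 (1.14 CPM) of all sham mice and the highest Ccl4 (0.367 CPM) of its group, and its microglia and astrocyte marker sums, 422 and 2000 CPM, were above those of the other 6 mice of its group. Without it the injury effect in E4/Abca1+/- mice was a log2 fold change of 4.62 for Cxcl10, 4.47 for Ccl3 and 5.51 for Ccl4, against 3.93, 3.60 and 4.41 with it, and all 3 were called. E4/Abca1+/- TBI replicate 8, with 964 CPM of Cx3cl1, had 23.4 CPM of hippocampal and 480 CPM of neocortical neuron markers, against 165 to 221 and 212 to 320 CPM in the other 7 mice. The same mouse had the highest Ccl3 (7.95 CPM), Ccl4 (3.87 CPM), Ccl6 (12.3 CPM) and Ccl9 (8.23 CPM) of all 58 mice, and sums of 972 CPM for microglia and 14.7 CPM for T and NK cell markers, above the other 7 mice of its group. Over all injured mice Cd8a reached at most 1.72 CPM and Trbc2 2.73 CPM, so most of the sum of 14.7 CPM was Cd4. Without it the log2 fold changes of TBI against sham in its genotype were −0.42 for Cx3cl1, 3.40 for Ccl3, 4.22 for Ccl4, 2.31 for Ccl6 and 1.66 for Ccl9, all called. Between Abca1+/- and Abca1+/+ mice with E4 and TBI, the log2 fold change of Ccl3 was then 0.85 and that of Ccl6 0.59, against 1.06 and 0.75 with it, and neither was called either way.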

How the data were processed

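The authors aligned the reads to mm10 with Subread 1.5.0 and deposited whole-number counts per gene from featureCounts, per the labels and the submitters' processing notes. The annotation and the strand setting are not given in the sources used here. The table held 15171 genes and 58 mice, 2 blank lines left out, and 23 symbols that had turned into dates. Total counts of 4421308 to 37877346 set the precision of low genes. Levels are CPM with TMM factors from all 58 mice. Comparisons used edgeR 4.0.16 in R 4.3.3 (filterByExpr, quasi-likelihood test, Benjamini-Hochberg over all genes, threshold 0.05) on the mice of the groups compared, and SE was the log2 fold change over the root of F. DESeq2 1.42.0, other scalings and filters, a sex covariate, a fit over all mice and thinned libraries were alternatives. Each mouse was left out in turn only for TBI against sham, Abca1 copies in E4 TBI mice and isoform in Abca1+/- TBI mice. For the sex fit either of 2 mice was left out. The scripts were tested on simulated data. The 10 ligands and the gene lists were chosen with earlier results of these data known. Named are the ligands, the receptors, the genes most like each ligand, and from other lists at most the 4 with the smallest p in a comparison. Some genes of these lists are not reported here. No 2 libraries were identical.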

Additional observations from a re-analysis of the deposited data

Results flagged for a closer look

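In 9 of the 80 combinations of ligand and group, the highest mouse stood apart from the others by Dixon's test at the 95% level. Chance alone gives about 5% of such combinations only where values are normally distributed. Whether these CPM are was not tested, so the 9 combinations cannot be set against that rate. For Ccl3 these were E3/Abca1+/+ sham replicate 1 (0.619 CPM, the others 0.0747 to 0.228, from 4 counts) and E4/Abca1+/- sham replicate 2 (1.14 CPM, the others 0.0350 to 0.393). For Ccl5 they were E3/Abca1+/+ sham replicate 8 (0.487 CPM, from 3 counts), E4/Abca1+/+ sham replicate 6 (0.400 CPM, from 4 counts), E3/Abca1+/+ TBI replicate 4 (4.87 CPM, the others 0.998 to 2.78) and E4/Abca1+/- TBI replicate 6 (10.1 CPM, the others 0.686 to 4.94, from 393 counts). The same sham mouse that stood apart for Ccl3 in E4/Abca1+/- mice, replicate 2, did so for Cxcl10 (2.28 CPM, the others 0.160 to 0.710). Ccl9 was 6.98 CPM in E4/Abca1+/+ TBI replicate 6 (the others 2.02 to 3.54), and Cx3cl1 was 964 CPM in E4/Abca1+/- TBI replicate 8 (the others 674 to 720).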

How the results depend on the processing

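In the 4 comparisons of TBI with sham, 9 ligands were called under every alternative run, and 9 without each mouse in turn. The counts that moved were 1 in place of 0 for Abca1 copies in E4 sham mice (Cxcl12, with DESeq2's Wald test and with all 58 mice in 1 fit), 1 in place of 0 for isoform in Abca1+/- sham mice (Cxcl12, DESeq2's Wald test), and 0 in place of 1 for isoform in Abca1+/- TBI mice with thinned libraries, 0 to 1 with a mouse left out. The cause was not tested. The log2 fold change of Cxcl12 in E3/Abca1+/+ mice turned to −0.0099 with DESeq2's size factors, −0.0088 with DESeq2's Wald test, −0.0088 with a minimum of 1 CPM in 6 mice and −0.012 with TMM factors from the compared mice alone, an alternative chosen after seeing the data, and ran from −0.052 to 0.026 with a mouse left out. The genes most like each ligand were shared in 18 of 30 cases with a pseudocount of 0.1. Both sex calls held under the alternatives run for that fit, which were chosen after seeing the data, and 2 to 3 ligands were called with either of 2 mice left out. Low counts in sham mice, and for Ccl4 in some injured mice, limit the fold changes of Ccl3, Ccl4, Ccl5, Ccl12 and Cxcl10. No paired analysis was possible because the mice carry no replicate number in the labels that is shared between groups.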
